A study of Mus musculus with 3 samples.

Results

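Mural cells are the contractile and supporting cells of the vessel wall. Smooth muscle cells encircle arteries and set their tone through actin and myosin, and pericytes wrap the endothelium of capillaries and small vessels, where PDGF-B from endothelial cells signals through the receptor Pdgfrb and Jagged ligands signal through Notch3. Pericytes carry the ATP-sensitive potassium channel built from Kcnj8 and Abcc9, and smooth muscle carries the contractile proteins Myh11, Acta2, Tagln and Cnn1. The cells described here are the 82 barcodes with mural transcripts in the mouse arterial library labelled Yoda1, out of 3130 kept cells in that library and 11225 in all 3 libraries.

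The series holds droplet 3' single-cell RNA sequencing of digested mouse arteries, 1 library for each of 3 treatments: vehicle, sunitinib, and sunitinib with Yoda1. All mice were wild type, and every label gives 3 weeks without saying whether that is an age or a length of treatment. Sunitinib blocks receptor tyrosine kinases, among them the VEGF, PDGF and KIT receptors, and Yoda1 opens the stretch-gated channel Piezo1. The third library's own label names Yoda1 alone, and it was placed with the combined treatment because the design lists no other group with Yoda1. No source used here says how many mice went into a library, and with 1 library per treatment no difference between treatments can be tested. Intervals below are exact 95% intervals that cover counting error only, not the spread between animals.

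A mural cell was a barcode with at least 500 UMIs (unique molecular identifiers, which count captured RNA molecules), at least 300 genes and at most 15% mitochondrial UMIs. At least 0.5% of its UMIs came from Acta2, Tagln, Myh11, Rgs5 and Ndufa4l2 together, at least 2 of Myh11, Rgs5, Notch3, Pdgfrb and Ndufa4l2 were detected, and Cd79a, Cd3e and Ptprc were at 0. The 82 cells carried those 5 transcripts at a median of 2.86% of UMIs and at most 9.07%. The lowest 3 members stood at 0.668%, 0.684% and 0.713%, and the nearest cells outside that met every other condition stood at 0.423%, 0.402% and 0.298%, so the limit fell in a gap. The members were thus chosen by measured values, those of the rule's transcripts, and their levels are given below as a description. The same holds for every gene compared between the types of mural cell or between mural and other cells.

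The library had few mural cells beside the other libraries. They were 2.62% of its kept cells (exact binomial interval 2.09% to 3.24%), against 89.4% (3529 of 3947 cells) with vehicle and 85.6% (3550 of 4148 cells) with sunitinib. Of the other kept cells of the Yoda1 library 1767 were B or T cells by Cd79a or Cd3e, against 5 in each of the other libraries. Treatment and library cannot be told apart here. The members held a median of 13135.5 UMIs and 3684.5 genes, against 5348.5 UMIs in the other kept cells of the library and against 16953 and 16590.5 UMIs in the mural cells with vehicle and sunitinib. Their mitochondrial share had a median of 6.60% and ran from 2.67% to 14.2%. No mural barcode of the library recurred in another library, although 3 to 8 barcodes were shared by each pair of libraries. Doublets were neither called nor removed.

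Each member was then called pericyte-type when Kcnj8, Abcc9 and Ndufa4l2 together had more UMIs than Myh11 and Cnn1 together, and contractile-type in the opposite case. This gave 7 pericyte-type cells, 8.54% of the members (exact binomial interval 3.50% to 16.8%), and 75 contractile-type cells. The other libraries held 1 pericyte-type cell each among 3529 and 3550 mural cells, and 2 cells with sunitinib were tied. Only 1 cell of the Yoda1 library lay within 2 UMIs of the dividing line. The 7 pericyte-type cells summed to 59228 UMIs and the 75 contractile-type cells to 1043448 UMIs, so values for the former rest on much thinner counts.

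**Figure D1:**
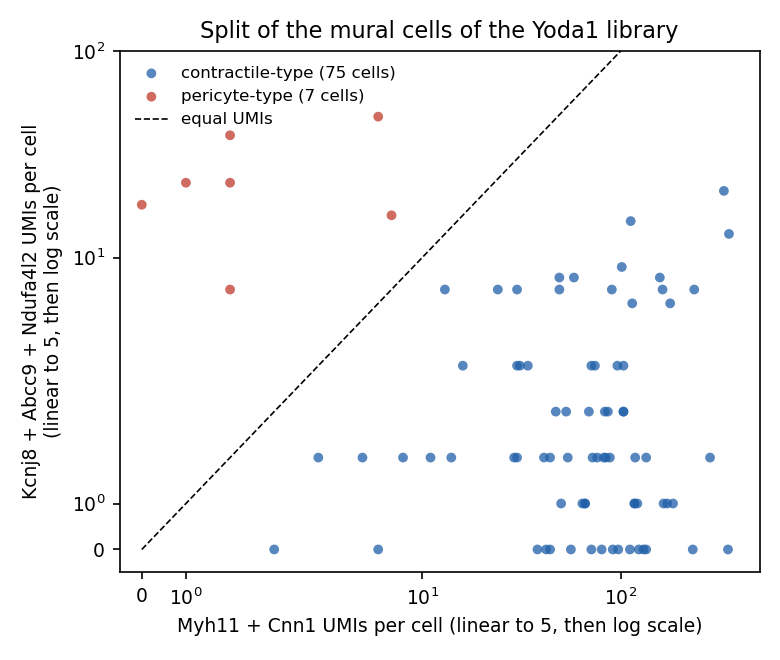
UMIs per cell of Kcnj8, Abcc9 and Ndufa4l2 (vertical axis) against Myh11 and Cnn1 (horizontal axis), both linear to 5 and logarithmic above, 1 point per mural cell of the Yoda1 library. The dashed line marks equal UMIs, and the 7 pericyte-type cells sit above it, well apart from nearly all of the 75 contractile-type cells below it.

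The label was checked against markers that the rule had not used. Among smooth muscle genes, Tpm2 (a tropomyosin), Myl9 (the myosin regulatory light chain) and Tpm1 had UMIs in 75 of 75 contractile-type cells, Mylk (the kinase of that light chain) in 74 and Lmod1 in 73. Detection of these genes did not separate the types, since Tpm2, Myl9 and Tpm1 also had UMIs in all 7 pericyte-type cells, Mylk in 6 and Lmod1 in 5. Among pericyte genes, Gucy1a1 and Gucy1b1, the subunits of the nitric oxide receptor, had UMIs in all 7 pericyte-type cells, but also in 71 and 62 of the 75 contractile-type cells, and Cspg4 was in 6 of 7 and 63 of 75. Higd1b, Steap4, Vtn and Cox4i2 were each in 6 of 7 pericyte-type cells and in 3, 4, 5 and 20 of 75 contractile-type cells. Other genes of the pericyte list were seldom found: Colec11 was in 3 of 7 pericyte-type cells, Anpep in 2, P2ry14 in 1 and Kcnk3 in 0. Atp13a5, often named for brain pericytes, was at 0 in all 7. Of the given markers Trpc6, a calcium-permeable channel, was the least general: 2 of 7 pericyte-type cells and 5 of 75 contractile-type cells had a UMI.

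Smooth muscle genes are classically controlled through the CArG box, the DNA site of serum response factor, whose coactivator is myocardin (Myocd). The box was sought on both strands in RefSeq promoter windows of 250 bases before to 50 bases after each annotated start (build GRCm38.p6). Of the 18 contractile genes, 14 had a window and 2 of these, Ldb3 and Myl9, held the box. Of 27 pericyte genes, 22 had a window and 1, Trpc6, held it. In all windows the box stood in 488 of 27025 genes (1.81%). A match of letters is not a bound site, and a window without it says nothing of control from elsewhere. The 3 stretches follow because they belong to genes that lie on opposite sides of the split; capitals mark the box, which begins 109, 161 and 122 bases before the start.
Ldb3 promoter, chr14:34588677-34588746, minus strand: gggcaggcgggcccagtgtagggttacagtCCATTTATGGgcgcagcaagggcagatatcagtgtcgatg
Myl9 promoter, chr2:156775273-156775342, plus strand: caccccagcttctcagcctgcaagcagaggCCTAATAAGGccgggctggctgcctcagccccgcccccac
Trpc6 promoter, chr9:8543990-8544059, plus strand: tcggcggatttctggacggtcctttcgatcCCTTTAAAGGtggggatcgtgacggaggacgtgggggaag

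The pericyte-type cells are few enough to be given singly, and they are listed here in order of depth, at 3949, 5588, 5886, 6126, 9497, 12618 and 15564 UMIs. Rgs5, a brake on G-protein signalling and a common pericyte marker (chr1:169655501-169695813, plus strand, GRCm38), had 20, 30, 59, 71, 40, 74 and 17 UMIs in that order. Ndufa4l2, a hypoxia-inducible relative of the cytochrome oxidase subunit Ndufa4 (chr10:127514967-127517154, plus strand, overlapping Shmt2 on the other strand), had 7, 2, 4, 18, 11, 14 and 14. Every cell therefore carried both, and the deepest cell had the fewest Rgs5 UMIs. Abcc9, the regulatory subunit of the potassium channel, had 8, 2, 17, 24, 9, 17 and 2 UMIs, and Kcnj8, its pore, had 3, 3, 2, 6, 3, 8 and 0. Pdgfrb had 1, 2, 4, 8, 10, 7 and 5 UMIs, and Notch3 had 3, 3, 5, 9, 6, 3 and 1, so both receptors were seen in all 7 cells.

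Genes outside the rule followed the same cells, apart from the deepest. Steap4, a metalloreductase, had 9, 1, 7, 9, 1, 7 and 0 UMIs. Vtn, the secreted adhesion protein vitronectin, had 1, 5, 2, 4, 1, 6 and 0. Higd1b had 6, 3, 3, 6, 10, 4 and 0. The deepest cell lacked all 3 and Kcnj8 as well, and it carried 159 Acta2 and 317 Tagln UMIs, while the other 6 had 0 to 13 Acta2 UMIs and 0 to 16 Tagln UMIs. It held 16 of the 21 Rgs4 UMIs of the 7 cells. This cell's values are kept in the sums below.

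Markers of other cell types were low in most of the 7. Of 59 endothelial UMIs (12 marker genes), the cell at 12618 UMIs held 43, and the cells held 0, 0, 3, 3, 3, 43 and 7 in order of depth. Flt1, a VEGF receptor typical of endothelium, had 0, 0, 0, 0, 2, 45 and 26 UMIs. Fibroblast markers came to 11 UMIs with 10 of 12 genes at 0, and Dcn was at 0 in all 7. Red cell markers came to 25 UMIs and were present in all 7 cells. B, T, myeloid and cardiomyocyte markers came to 2, 1, 1 and 1 UMIs. Skeletal muscle, Schwann, mesothelial, adipocyte, epithelial and platelet markers were at 0. The part of endothelial RNA in the values of Flt1, Adgrf5, Cd36 and Fabp4 was not tested. Without cells holding over 20 endothelial or over 20 Dcn UMIs, the log2 ratio of Flt1 between the types was 5.65 and that of Adgrf5 was 7.43. These ratios rest on few cells and cannot show the part of endothelial RNA. Of the pericyte-type cells kept, the deepest held 26 Flt1 UMIs and the others 0 or 2. For Adgrf5, a contractile-type cell that was left out, with 122 endothelial UMIs, held 11 of the 13 UMIs of its type.

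Levels of the 2 types were compared as CPM, the summed UMIs of a gene in each type scaled to a common total of UMIs. Of 6093 genes with at least 20 UMIs over both sums, 33% were at least 2-fold apart, with 21.1% higher and 11.9% lower in pericyte-type cells. The median log2 ratio over all of them was 0.16, and every count below is to be read against that background. These 1284 higher and 727 lower genes became 990 and 999 under median-of-ratios scaling. Pericyte genes were higher: 18 of 24 measured genes of the list passed 2-fold upwards and 0 downwards, with a median log2 ratio of 2.0, and part of this list defined the split. Ndufa4l2 stood at 1182 CPM against 44.1 CPM, Abcc9 at 1334 against 140, Kcnj8 at 422 against 47.9 and Rgs5 at 5251 against 1040. Outside the rule, Higd1b stood at 540 against 5.75 CPM, a log2 ratio of 6.55 (5.28 to 8.10), and Steap4 at 574 against 12.5 CPM, a log2 ratio of 5.53 (4.57 to 6.57). Cspg4, the proteoglycan NG2, was level between the types at 236 and 249 CPM. Kcnk3, an acid-sensitive potassium channel also listed with pericytes, had 0 UMIs in the 7 cells and 86.3 CPM in the contractile-type cells.

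The genes furthest above contractile-type cells were led by Cygb, the globin cytoglobin, at 625 against 5.75 CPM, a log2 ratio of 6.76 (5.51 to 8.30). It had 1, 1, 6, 7, 10, 11 and 1 UMIs and so was present in all 7 cells (chr11:116645595-116654313, minus strand, overlapping Prcd on the other strand). Ifitm1, an interferon-inducible membrane protein, followed at a log2 ratio of 6.64, but it was at 0 in 3 of the 7 cells and had 16 of its UMIs in 1 cell. Flt1 (5.81), Phlda1 (5.24), Adgrf5 (5.19), Sept4 (4.57) and Pcdh19 (4.55) were also among the leading genes, as were Higd1b and Steap4. Ebf2, a transcription factor, was present in all 7 cells at 1 to 5 UMIs and stood at 321 against 36.4 CPM. The angiotensin receptor Agtr1a was present in 6 of 7 at 152 against 1.92 CPM, and the endothelin receptor Ednrb in 5 of 7 at 253 against 13.4 CPM. Trpc6 stood at 253 against 8.63 CPM, with all its UMIs of the pericyte-type cells in 2 cells.

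A pair of respiratory subunits and their hypoxia-associated relatives went opposite ways between the types. Ndufa4 was at 169 CPM in pericyte-type and 499 CPM in contractile-type cells, a log2 ratio of -1.56 (-2.63 to -0.67), while Ndufa4l2 had one of 4.74 (4.19 to 5.31). Cox4i1, the general form of a cytochrome oxidase subunit, had a log2 ratio of -0.53 (-1.08 to -0.03), while Cox4i2, its hypoxia-associated form, had one of 3.78 (2.97 to 4.58). Ndufa4l2 had helped to define the split and Cox4i2 had not. Over the nuclear respiratory chain list, 0 of 18 measured genes were 2-fold higher and 4 were 2-fold lower in pericyte-type cells, with a median log2 ratio of -0.45. Over the hypoxia list, which holds Ndufa4l2, Cox4i2 and Higd1b, 7 of 10 measured genes were 2-fold higher and 0 lower, with a median of 1.12, which was 0.54 under the strict split of types and 0.66 as a mean over cells. Mitochondrial transcripts were also lower in share, at a median of 4.62% of UMIs in the pericyte-type and 6.79% in the contractile-type cells.

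Most contractile and elastic genes stood lower in pericyte-type cells. Of 18 measured contractile genes 16 were at least 2-fold lower and 0 higher, with a median log2 ratio of -2.15. Myh11, the smooth muscle myosin heavy chain (chr16:14194535-14291372, minus strand), stood at 338 CPM against 5555, and Acta2 at 3005 against 15414, of which the deepest cell supplied 159 of 178 UMIs. Cnn1 had 0 UMIs in the 7 cells and, set to 3 counts (50.7 CPM), was 21.7-fold lower than the 1101 CPM of contractile-type cells. Myocd was also at 0 and, set to 3 counts, 4.54-fold lower. The 2 genes of the list less than 2-fold apart were desmin (Des), at 338 and 329 CPM, and the rule gene Tagln, at 5909 and 10127 CPM, with 317 of its 350 UMIs in the deepest pericyte-type cell. Of 11 measured elastic fibre genes 7 were 2-fold lower and 0 higher, with a median of -1.94. That median was -1.09 with rule genes at 1% of UMIs and -1.01 in thinned cells. Elastin itself (Eln) had 2 UMIs, both in the cell rich in endothelial transcripts.

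The genes furthest below contractile-type cells were led by Kcnab1, a subunit of voltage-gated potassium channels, with 1 UMI and a log2 ratio of -5.72 (-11.03 to -3.24). Fibronectin (Fn1) had 1 UMI and one of -5.46. Pcdh7, a protocadherin, had 0 UMIs and, set to 3 counts, was 42.2-fold lower than 2136 CPM. Itga8, the integrin alpha-8 chain, had 2 UMIs and a log2 ratio of -5.38. Olfr1033 (-5.37), Pmepa1 (-5.34), Fmo2 (-5.18), Eln (-5.02), Crispld2 (-4.66) and Sorbs2 (-4.53) followed, each resting on 1 or 2 UMIs in the pericyte-type cells. Ion channel genes differed in both directions: among 17 measured potassium and calcium channel genes 5 were 2-fold higher, led by Abcc9 and Kcnj8, and 6 were 2-fold lower, led by Kcnma1, the large-conductance potassium channel, and its subunit Kcnmb1.

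Signalling genes between the 2 types were mixed. Of 10 measured Notch pathway genes 5 were 2-fold higher and 1 lower in pericyte-type cells, with a median log2 ratio of 1.05 that ran down to 0.28 when rule genes at 0.25% of UMIs sufficed. Notch3 stood at 507 against 224 CPM, the target gene Hes1 at 557 against 87.2 CPM and Heyl at 236 against 107 CPM. Pdgfa, a PDGF ligand, stood at 625 against 157 CPM. Of chemokine genes, Cxcl12 stood at 540 against 101 CPM. Ccl11 had 11 UMIs in the 7 cells, from the cells at 5588 and 9497 UMIs, the only ones of the 7 with that transcript and the ones without Fabp4. Stress lists were near the all-gene level, at a median of 0.25 over 13 heat shock genes and 0.28 over 18 immediate early genes.

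**Figure D2:**
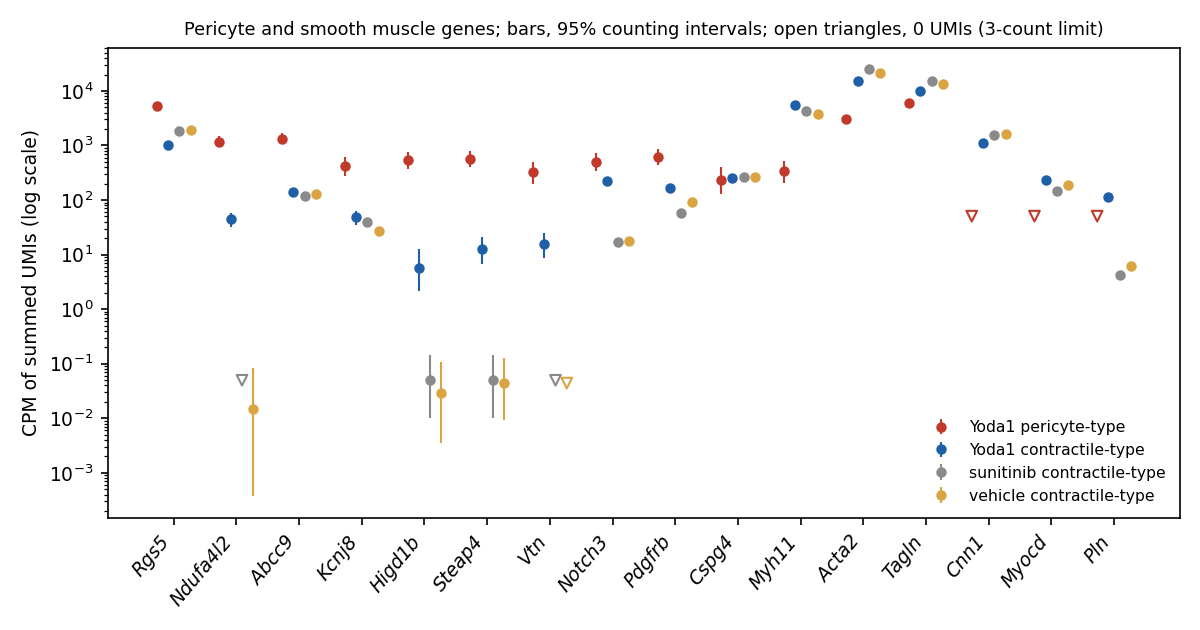
CPM of summed UMIs, on a log axis, for pericyte and smooth muscle genes in the pericyte-type and contractile-type cells of the Yoda1 library and in the contractile-type cells with sunitinib and vehicle. Points carry exact 95% Poisson intervals and open triangles mark 0 UMIs at the level of 3 counts. Ndufa4l2, Higd1b, Steap4 and Vtn are near or at 0 in the sunitinib and vehicle cells, and Cnn1, Myocd and Pln are at 0 in the pericyte-type cells.

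Beside the other kept cells of the same library, most of them B and T cells, the mural cells stood out first by smooth muscle genes. Of 13966 measured genes 41.8% were at least 2-fold apart, 18.6% higher and 23.3% lower in mural cells, and these values only describe what the rule selected. All 18 contractile genes were 2-fold higher, with a median log2 ratio of 6.12. Of 26 measured pericyte genes 22 were 2-fold higher (median 4.01), as were 10 of 11 genes of nitric oxide and cGMP signalling (4.02) and 17 of 19 potassium and calcium channel genes (3.79). The leading genes outside the rule were the neuropeptide Y receptor Npy1r (7.70), Stum (7.66), Col19a1 (7.39), Optc (7.28), E030013I19Rik (7.24), Actg2 (7.13), Ldb3 (7.0), Susd5 (6.93), Map3k7cl (6.92), Sost (6.86), Scube3 (6.83), Tpm2 (6.82), Itih4 (6.79), Kcnmb1 (6.76) and Nrip2 (6.75). Interferon genes were lower, 12 of 17 by at least 2-fold, with a median of -1.82.

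Several of the drugs' own targets were sparse in mural cells. Of 8 measured sunitinib target kinases 6 were 2-fold lower in mural than in other kept cells and only Pdgfrb was 2-fold higher. Pdgfrb, itself a gene of the rule, had UMIs in 7 of 7 pericyte-type and 67 of 75 contractile-type cells. Flt1 had UMIs in 3 of 7 and 10 of 75 cells, with up to 45 UMIs in a pericyte-type cell. Kit and Pdgfra had 0 UMIs in pericyte-type cells and 6 UMIs each in contractile-type cells, and Kdr, the main VEGF receptor of endothelium, had 8 and 2. Piezo1, the channel that Yoda1 opens (chr8:122481698-122551329, minus strand, with Ctu2 overlapping it on the opposite strand), had 2 UMIs in the pericyte-type and 20 in the contractile-type cells, 33.8 and 19.2 CPM, below the 43.5 CPM of the other kept cells. It had a UMI in 17.3% of contractile-type cells at a median of 13478 UMIs per cell and in 17.3% of the library's B and T cells at 5577, so detection did not set the mural cells apart. Its contractile-type level was 4.50 CPM with sunitinib and 5.18 CPM with vehicle, and its log2 ratio over sunitinib was 2.09 (1.36 to 2.75), for a gene with 59697 intron bases. Piezo2 stood at 33.5 CPM against 4.14 with sunitinib and 5.28 with vehicle.

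The 75 contractile-type cells were not alike. Myh11 ran from 2 to 311 UMIs per cell with a median of 62, Acta2 from 5 to 838 with a median of 164, and both were present in all 75. Rgs5 in contrast was at 0 in 37 cells, with a median of 1 and a highest value of 155. Notch3 was at 0 in 33 cells and reached 20 UMIs, Ndufa4l2 was at 0 in 61 and reached 15, and Pln was at 0 in 57 and reached 38. Pcdh7 was at 0 in 12 cells and had a median of 24 and a highest value of 180. Sost, the secreted Wnt and BMP antagonist sclerostin, which arterial smooth muscle can make (chr11:101962458-101967015, minus strand), had UMIs in 39 cells and none in 36. After values had been seen, Sost was chosen to describe this spread.

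Cells without Sost had a different gene profile, while Myh11, Acta2 and Eln differed little. Myh11 stood at 5271 CPM in the 39 cells with a Sost UMI and 6030 CPM in the 36 without, Acta2 at 15663 and 14997 CPM, and Eln at 1101 and 1093 CPM. Cnn1 was lower without Sost, at 1216 CPM (1133 to 1304) with and 908 CPM (816 to 1008) without it. Myh11, Acta2 and Cnn1 had helped to choose these cells, so their levels cannot show whether a contractile profile was kept. The receptor Notch3, also a gene of the rule, stood at 30.6 CPM with and 549 CPM without Sost. Pln, phospholamban, the brake on the calcium pump of the sarcoplasmic reticulum, stood at 6.12 and 290 CPM (chr10:53337667-53345987, plus strand, overlapping Cep85l on the other strand). Several genes were at 0 UMIs in all 39 cells with Sost: Ndufa4l2 (118 CPM without Sost), the sphingosine-1-phosphate receptor S1pr3 (185 CPM), the coregulator Nrip2 (133 CPM, in 17 cells), the collectin Colec11 (100 CPM) and Ebf2 (97.5 CPM). The endothelin receptor Ednra stood at 16.8 and 123 CPM, Kcnk3 at 52.0 and 144 CPM, and the calcium-binding protein Cabp1 at 4.59 and 103 CPM.

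Other genes ran the opposite way or level. Pcdh7 stood at 2732 CPM with and 1137 CPM without Sost, Itga8 at 1849 and 670 CPM, the prostacyclin synthase Ptgis at 713 and 339 CPM, and Sfrp2, a Wnt modulator, at 231 and 113 CPM. Rgs5 was nearly level at 994 and 1116 CPM, as was Kcnab1 at 951 and 793 CPM. The stress genes Hspb1, at 673 and 998 CPM, and Fos, at 1129 and 1529 CPM, were somewhat lower in cells with Sost. Depth also differed, with a median of 14931 UMIs in cells with Sost and 10973 in cells without.

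Markers of other cells lay unequally across the 75 cells. Fabp4, a fatty acid carrier of endothelium and adipocytes, stood at 132 CPM with and 1175 CPM without Sost. Of its UMIs, 288 were in 1 cell that also held 122 of the 214 endothelial UMIs. Dcn, decorin of fibroblasts, stood at 1.53 and 382 CPM and was detected in 9 of the 36 cells. Red cell transcripts came to 7084 UMIs, 6414 of them in 1 cell and 451 in another. B and T cell markers came to 33 and 2 UMIs and myeloid markers to 16. Cardiomyocyte markers came to 253 UMIs with 5 of 12 genes at 0, among them Myh6 and Myh7. In all, 19 of the 82 mural cells had a UMI of Pecam1, Cdh5 or Pdgfra, against 1135 of 3529 with vehicle and 1012 of 3550 with sunitinib. The part of such transcripts in the difference by Sost was not tested.

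**Figure D3:**
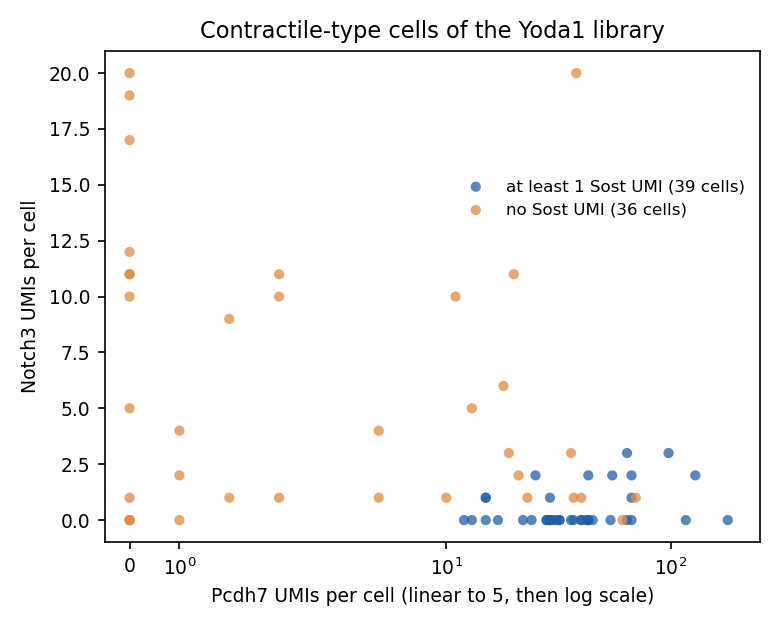
Notch3 UMIs per cell (vertical axis) against Pcdh7 UMIs per cell (horizontal axis, linear to 5 and logarithmic above) in the 75 contractile-type cells of the Yoda1 library. The 39 cells with a Sost UMI lie at 3 or fewer Notch3 UMIs, and the highest Notch3 values are in cells without a Sost UMI.

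The share of contractile-type cells with Sost was lower in the Yoda1 library. With each cell thinned to 5770 UMIs and shallower cells left out (7 of 75 cells here, 67 with vehicle and 255 with sunitinib), 45.6% of cells had a Sost UMI (33.5% to 58.1%), against 94.8% with vehicle and 92.0% with sunitinib. Unthinned shares were 52.0%, 98.4% and 96.1%. Rgs5 went the same way, with a thinned share of 42.6% (30.7% to 55.2%) against 78.7% in each of the others. Shares of Notch3 (48.5% against 9.10% and 9.23%), Kcnk3 (38.2% against 1.73% and 1.82%), Pln (19.1% against 2.08% and 2.0%) and Ndufa4l2 (13.2% against 0% and 0%) went the opposite way. Rgs5, Notch3 and Ndufa4l2 are genes of the rule. A cell with Myh11 but no Rgs5 had to hold Notch3, Pdgfrb or Ndufa4l2 to be chosen. The shares of these 3 genes thus depend in part on the choice of cells. Among the library's 1767 B and T cells, the share with a UMI was 1.70% for Rgs5 and under 1% for Sost, Notch3, Kcnk3, Pln and Ndufa4l2.

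Cells without Sost existed in the other libraries, with lower levels of the genes below than cells without Sost in the Yoda1 library. There were 56 with vehicle and 138 with sunitinib, the latter shallow at a median of 2715.5 UMIs. Their Notch3 level was 28.1 and 18.9 CPM, their Kcnk3 level 8.27 and 3.33 CPM, and Ndufa4l2 was at 0 in both sums. Pln was the nearest, at 51.3 and 45.5 CPM, from UMIs in 3 and 7 cells. In cells with Sost of the vehicle and sunitinib libraries, Notch3 stood at 17.3 CPM in both, Kcnk3 at 2.76 and 3.23 CPM and Pln at 5.68 and 3.53 CPM. Pln was thus higher without Sost in these libraries too. Posterior Hox transcripts (paralogue groups 6 to 11), which mark the level of the body axis, were present in 38 of 75 contractile-type cells of the Yoda1 library (50.7%), against 61.8% with vehicle and 65.6% with sunitinib, at depths that differ. Their levels were 105, 101 and 126 CPM in that order.

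Contractile-type cells of the Yoda1 library were next set beside those of the sunitinib and vehicle libraries. Both comparisons use the same 75 cells, so they are given side by side and neither supports the other. Against sunitinib, 27.7% of 12499 measured genes were at least 2-fold apart, 23.6% higher (2946 genes) and 4.13% lower (516 genes), with a median log2 ratio of 0.27 over all. Against vehicle, 31.1% of 12503 were, 26.9% higher (3365) and 4.21% lower (527), with a median of 0.36. Median-of-ratios scaling gave 2250 higher and 950 lower genes against sunitinib and 2318 and 1044 against vehicle. That scaling subtracts the median ratio, so medians near 0 follow from the step itself. Sunitinib and vehicle cells themselves were 2-fold apart for only 3.96% of 14022 genes, 2.36% higher and 1.6% lower with sunitinib.

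Ratios were higher for genes with longer introns in both comparisons that involve the Yoda1 library. When measured genes were ordered by total intron length and cut into 5 equal bins, from the shortest to the longest bin the median log2 ratio over sunitinib was -0.10, 0.02, 0.15, 0.40 and 1.01, and over vehicle 0.00, 0.13, 0.27, 0.46 and 1.07. For sunitinib over vehicle it was 0.11, 0.11, 0.11, 0.08 and 0.05. In the longest bin, 50.4% of genes were at least 2-fold higher than with sunitinib. The Yoda1 matrix was made with Cell Ranger 7.1.0 and the others with 6.0.0, versions whose defaults treat intronic reads differently, and no source used here gives the setting. Treatment, library and counting version therefore cannot be told apart for genes with long introns.

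**Figure D4:**
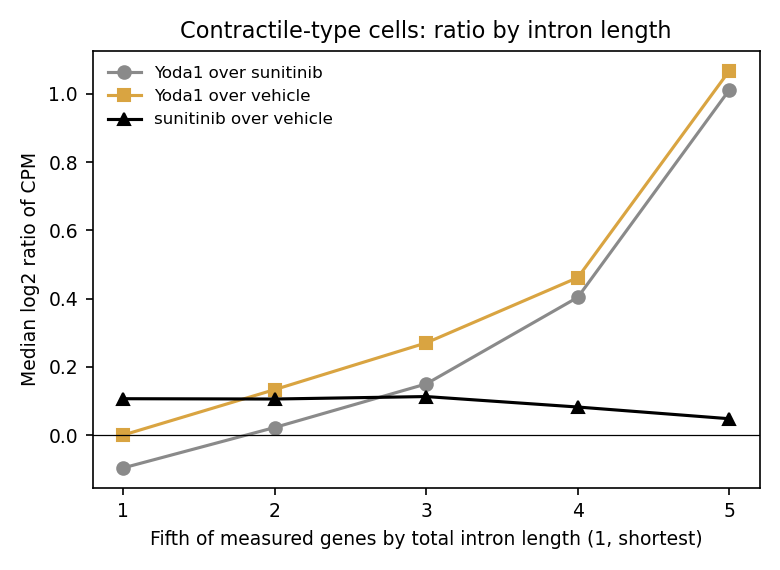
Median log2 ratio of CPM between contractile-type cells of the libraries (vertical axis) by bin of measured genes ordered by total intron length (horizontal axis, bin 1 is the shortest of 5). Both lines with the Yoda1 library climb to 1.01 and 1.07 in the longest bin, while sunitinib over vehicle stays between 0.05 and 0.11.

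Among genes at least as high in contractile-type as in other kept cells of the Yoda1 library, those furthest above sunitinib carried this pattern. Camk1d, a kinase gene with 413632 intron bases, stood at 1907 CPM against 3.81, but also at 1731 CPM in the other kept cells of the Yoda1 library. Cdk8 stood at 2378 against 20 CPM and at 2342 CPM in other kept cells, Gphn at 1030 against 15.5 and at 891, and Il31ra at 137 against 0.03 and at 114. These 4 genes were thus high in the pooled other cells of that library as well. Of the 10 leading genes, 5 lay in the longest intron bin. Nrip2 (log2 ratio 9.97), Cabp1 (7.11), Rgs6 (6.07) and Lrrtm3 (6.0) were in contrast mostly mural, with 49.8, 41.2, 116 and 71.9 CPM in contractile-type and 0.44, 2.52, 8.06 and 5.39 CPM in other kept cells. Genes higher in the other kept cells had been left out of the ranking, so its lean towards mural cells was in part selected. Gm12703 (7.09) and Slc11a1 (5.53) completed the 10.

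Stress and immediate early genes stood lower in the contractile-type cells of the Yoda1 library than in both others. Heat shock genes had a median log2 ratio of -1.13 over sunitinib and -1.91 over vehicle, with 13 of 13 below 0 in both and 8 and 13 at least 2-fold lower. Over all genes 4.13% and 4.21% were at least 2-fold lower. Hspb1, a small heat shock protein abundant in muscle (chr5:135887919-135889563, plus strand), stood at 795 CPM against 4021 with sunitinib and 5672 with vehicle. The constitutive chaperone Hspa8 stood at 695, 2511 and 3667 CPM in the same order, and Hsp90aa1 at 444, 1050 and 1679 CPM. Sunitinib cells lay between the others for each of these genes, and the list's own median for sunitinib over vehicle was -0.68, with 13 of 13 genes below 0.

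Immediate early genes, which cells transcribe soon after a stimulus, had medians of -1.38 over sunitinib and -2.08 over vehicle, with 22 of 22 below 0 in both and 15 and 17 at least 2-fold lower. The AP-1 subunit Fos stood at 1278, 5221 and 6868 CPM, Atf3 at 385, 1243 and 2025 CPM, and Egr1 at 517, 1305 and 2332 CPM, in the order Yoda1, sunitinib and vehicle. Nr4a1 differed least from sunitinib, at 367 against 476 CPM. The list's median for sunitinib over vehicle was -0.45, with 22 of 22 below 0. Both lists lay mostly among genes with short introns: 11 of 13 heat shock and 18 of 22 immediate early genes lay in the shortest 2 bins and 0 in the longest. The all-gene medians over sunitinib in the shortest 2 bins were -0.10 and 0.02, and 9.04% and 5.32% of their genes were at least 2-fold lower, against 1.04% in the longest bin. Restricted to cells with a Sost UMI in every library, the medians over sunitinib were -1.09 and -1.53. Treatment, library and counting version cannot be told apart for these lists either.

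**Figure D5:**
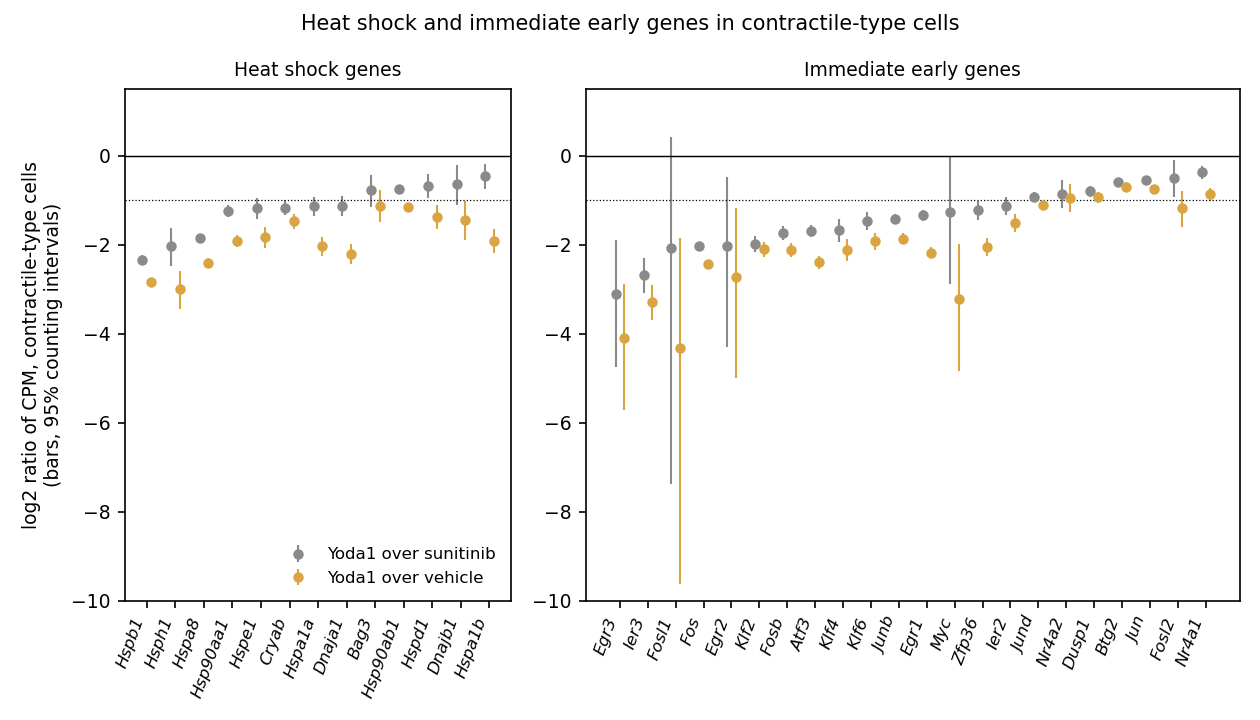
Log2 ratio of CPM (vertical axis) of contractile-type cells of the Yoda1 library over sunitinib and over vehicle for 13 heat shock and 22 immediate early genes, with exact 95% counting intervals. Every point lies below 0, and most lie below the dotted line at a 2-fold difference.

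Genes furthest below sunitinib were ranked only if contractile-type cells with sunitinib had at least the level of that library's other kept cells. They were led by Gdf15, a secreted stress-response cytokine (chr8:70629393-70632456, minus strand). It had 1 UMI in the 75 cells, 0.96 CPM, against 69.2 CPM with sunitinib and 126 CPM with vehicle, a log2 ratio of -6.17 (-11.48 to -3.70). At the common depth of 5770 UMIs it was found in 0 of 68 cells, which allows a share of up to 5.28% by the exact binomial bound, against 21.3% with sunitinib and 32.4% with vehicle. Other kept cells were also low at 2.18 CPM in the Yoda1 library and at 47.6 and 101 CPM in the sunitinib and vehicle libraries. Gadd45b (-3.14), a stress-induced regulator, stood at 52.7 CPM against 464 and 786 CPM. Ddit4 (-3.25), an inhibitor of mTOR signalling, and the factor Egr3 (-3.11) rested on 3 and 5 UMIs in the Yoda1 library. Gm12840 (-3.32), Zdhhc23 (-3.11), Gm26532 (-3.03), Cidea (-3.03), Casq1 (-2.79) and Gm17056 (-2.73) followed, and 9 of these 10 genes lay in the shortest 2 intron bins. Counts were thin for Zdhhc23 and Casq1 too, at 1.92 and 5.75 CPM in the Yoda1 library, beside 2.88 for Ddit4 and 4.79 for Egr3.

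As a list, contractile genes differed little between the libraries. Acta2, Tagln, Myh11 and Cnn1 had helped to choose these cells in each library, so their levels cannot show whether a contractile profile was kept. Over the 18 genes the median log2 ratio was 0.24 over sunitinib and 0.42 over vehicle, close to the medians of all genes, with 3 and 3 genes at least 2-fold higher and 0 lower. The first of these medians was near 0 under median-of-ratios scaling and -0.58 in the 9 cells with at most 5% mitochondrial UMIs. Acta2 was lower, at 15414 CPM against 25090 with sunitinib and 21269 with vehicle, as was Tagln at 10127 against 15407 and 13574 CPM, while Myh11 was at 5555 against 4362 and 3822 CPM. Pln (log2 ratio 4.75 over sunitinib) and Sorbs2 (1.94) were the highest of the list. Elastic fibre genes had a median of 0.04 over sunitinib, and fibrillar collagen genes 0.11. Nuclear respiratory chain genes had one of -0.16, with 18 of 20 below 0. Of these 20 genes 15 lay in the shortest 2 intron bins, where the medians of all genes were -0.10 and 0.02.

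Receptors, channels and Notch genes stood higher, in part along with intron length or with cells lacking Sost. Over all measured genes 23.6% were at least 2-fold higher than with sunitinib and 4.13% lower, and in the longest intron bin 50.4% were higher. Potassium and calcium channel genes had a median log2 ratio of 1.59 over sunitinib, with 10 of 19 at least 2-fold higher, and 10 of 19 lay in the longest intron bin. Restricted to the 3 shorter intron bins that median was 0.52, and restricted to cells with Sost it was 1.02. Pericyte genes, some of which chose or split the cells, had 12 of 21 at least 2-fold higher and 1, Postn, lower. Their median was 1.51. It was 0.10 over the shorter genes alone and 0.78 in cells with Sost. Vasoactive receptor genes had a median of 1.54, with 12 of 18 at least 2-fold higher and 3 lower. It was 1.25 over the shorter genes alone and 1.13 in cells with Sost. In the 9 cells with at most 5% mitochondrial UMIs the medians of the channel, pericyte and vasoactive lists were 0.66, 0.96 and 0.096.

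The Notch list had a median of 1.22 over sunitinib, with 7 of 12 at least 2-fold higher, beside 23.6% over all genes. It was 0.61 over the shorter genes alone and 0.69 in cells with Sost. Notch3 itself (chr17:32120820-32166852, minus strand), a gene of the rule, stood at 224 CPM against 17.3 with sunitinib and 17.4 with vehicle. Its log2 ratio over sunitinib was 3.69 (3.48 to 3.90), and 0.82 in cells with a Sost UMI. Pln went from 4.75 to 0.79 and Cabp1 from 7.11 to 3.92 under the same restriction, while Hspb1 went from -2.34 to -2.58. Nrip2 had 0 UMIs in cells with Sost and gave no value there. Among targets of Notch, Hes1 was lower in the Yoda1 library than with sunitinib, at 87.2 against 134 CPM, and Heyl was higher at 107 against 73.9 CPM.

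Interferon genes stood higher and glucocorticoid target genes lower in the contractile-type cells of the Yoda1 library than with sunitinib. Of 13 measured interferon-response genes 9 were at least 2-fold higher than with sunitinib and 0 lower, with a median log2 ratio of 1.53, beside 23.6% higher over all genes. Only 1 of these 13 lay in the longest 2 intron bins. Endothelial markers stood higher in the same cells, 7 of 10 measured genes by at least 2-fold with a median of 1.74. Their sum was 205 CPM against 70.7 with sunitinib and 70.9 with vehicle. Of the 214 UMIs behind it, 122 were in 1 cell, and 35 of the 75 cells had 0. None of the 12 genes was at 0 in the sum of the Yoda1 cells. Cd74, an antigen-presentation gene abundant in the library's B cells, had 10 UMIs and a log2 ratio of 2.91. The interferon median was 1.16 without cells over 20 endothelial or over 20 Dcn UMIs and 0.77 in cells with Sost, and the part of other cells' transcripts in it was not tested. Of 14 glucocorticoid target genes 6 were at least 2-fold lower and 0 higher, with a median of -0.74, and -1.16 in cells with Sost. Over all genes 4.13% were at least 2-fold lower. Fkbp5, a chaperone partner of the glucocorticoid receptor, stood at 15.3 CPM against 82.9 with sunitinib and 29.9 with vehicle, and the metallothionein Mt1 at 598 against 2020 and 1867 CPM. The cell-cycle inhibitor Cdkn1a stood at 29.7 against 179 and 295 CPM.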

How the data were processed

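Each library was deposited by the authors as a matrix of UMI counts per gene and barcode, written by Cell Ranger 6.0.0 (vehicle, sunitinib) or 7.1.0 (Yoda1) per the file headers. The build mm10 and Seurat are named in the submitters' processing notes, and filters before deposit are not given in the sources used here. Libraries held 73901343, 66769480 and 28364203 UMIs in 4491, 4506 and 5118 barcodes, in the order vehicle, sunitinib, Yoda1.

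Counts were summed per library and cell type and divided by the sum's total (CPM). A log2 ratio carries the exact conditional binomial interval, a CPM the exact Poisson interval and a share the Clopper-Pearson interval, all at 95%. A gene was measured with at least 20 UMIs over both sums. Where a sum was 0 the ratio was computed against 3 counts, a set level and not the limit of the exact interval. Such a ratio was left out if it lay on the wrong side. No test was run, since each treatment has 1 library. Intron lengths and gene positions came from GENCODE vM21 (GRCm38) and promoters from RefSeq, with those on 1 chromosome not used here. Python 3.11.15, numpy 2.4.6, scipy 1.17.1, pandas 2.3.3 and matplotlib 3.10.9 were used, and the ratio script was tested on simulated data.

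Named genes were the genes of the rule and the given markers, Piezo1 and the target kinases, the highest and lowest 2 of each list described, and the leading genes by log2 ratio that were detected in 20% or more of a group's cells: 15 of mural over other cells (at least 50 UMIs), and 10 in each direction of pericyte-type over contractile-type (at least 30 UMIs) and of Yoda1 over sunitinib contractile-type cells (at least 50 UMIs). These rankings skip the rule's genes and those for mitochondrial RNA, ribosomal proteins, haemoglobins and immunoglobulins, and those linked to sex. Further genes were named for their role or after their values were seen. The 82 members, the 36 gene lists (13 of other cell types; 3 listed genes were not found in the files under their names) and the tests were chosen with earlier results of these data known. A few of the genes so chosen are not reported here.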

Additional observations from a re-analysis of the deposited data

How the results depend on the processing

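Results were recomputed under up to 17 alternatives. Of 332 list medians 295 moved by less than the typical counting error of the list's genes and 37 by more. The number counted as reversed was 0, but values reported near 0 could not count. Some medians near 0 did change sign. Over sunitinib these were the contractile (-0.58 to 0.34), elastic fibre (-0.32 to 0.28) and fibrillar collagen lists (-0.16 to 0.43). Between the types it was the potassium and calcium channel list (-0.77 to 0.89). Of 843 values of named genes 751 moved by less than their own counting error, 91 by more and 1 reversed. The reversed value was the log2 ratio of Myh11 over sunitinib, which went from 0.35 to -0.083 with mitochondrial UMIs at most 5%. That limit left 14 mural cells, 9 contractile-type and 5 pericyte-type, with 252 genes higher and 337 lower in pericyte-type cells, 1836 higher and 909 lower than sunitinib, 849 lower than vehicle, and a heat shock median of -1.58. A limit of 10% moved no count of cells or genes past 1.5 times. Requiring 0 UMIs of Pecam1, Cdh5 and Pdgfra left 63 mural and 57 contractile-type cells. Median-of-ratios scaling gave 950 and 1044 genes lower than sunitinib and vehicle, and medians of -1.40 (heat shock) and -1.65 (immediate early) over sunitinib. With rule genes at 1% of UMIs, 468 genes were lower in pericyte-type cells, of which there were then 3, and with 0.25% there were 10. With at least 50 UMIs per gene 482 genes were higher there, and with cells thinned 642 were higher and 474 lower. Chosen after seeing the data, the 3 shorter of 5 intron bins hold fewer genes and gave 645 higher and 417 lower in pericyte-type cells, 1101 higher than sunitinib and 1369 higher than vehicle. Apart from limits that leave fewer cells or genes, the cause was not tested. A gene with 0 UMIs in the 7 pericyte-type cells was set to 3 counts, 50.7 CPM, and may still be expressed there. No paired analysis was possible because each group has 1 library and the result comes from no test. No library could be left out for the same reason.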
